A study of Mus musculus with 12 samples.

Results

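Skipped exons are exons that some transcripts of a gene include and others leave out. The files of this series give the level of transcripts with and without each such exon in FPKM, a unit of RNA abundance corrected for the length of the transcript and the size of the library. Exons were kept where a form including the exon and a form skipping it had the same locus, start and end, where both forms were above 0 in some library, and where the summed FPKM of both was 5 or more in all 12 libraries. This left 6279 exons in 3221 loci, of 15454 exons with both forms and 24167 exons listed in any form. The floor was a summed FPKM, so the members were selected on their level, and not on the share of the included form beyond the need for both forms to occur. The exons closest above it were in Edc3 (lowest sum 5.0009) and Arntl (5.0015), and the closest below it in Mtmr14 (4.9995) and C2cd3 (4.9976).

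RNA came from CD4 T cells of mouse spleen, with 3 libraries each of KIKO activated, KI activated, KIKO naive and KI naive cells. Activated cells had been stimulated through CD3 and CD28 with antibody beads for 16 h, and naive cells had not. KI and KIKO are all that the labels say of genotype, and age and sex are not stated. For KIKO activated cells the sample titles leave out CD4 and say T cells. Nothing says that the 3 libraries of a group came from separate animals, so p-values measure the spread between these libraries.

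A skipped exon of a length that is a multiple of 3 adds or removes a stretch of protein, and one of another length shifts the reading frame. Some exons carry a stop codon and send the transcript to nonsense-mediated decay, and SR proteins, which bind exons and promote their use, are known to lower their own level through such poison exons. In T cells the best-known case is Ptprc, which encodes the phosphatase CD45 of the T cell surface. Variable exons of this gene are known to be skipped more after activation, and hnRNP proteins, which mostly repress exons, take part in this.

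The sequences of the exons on which the results turn were read from GENCODE M21 transcripts (GRCm38), matched by the length of the exon and of both flanking introns. Coordinates are those of the files (GRCm39), and sequences run 5′ to 3′ on the strand of the gene. The coding exons below are in capitals between 10 bases of each neighbouring exon. They show how little some of the switched exons add: the 9-bp exon of Macf1 holds 3 codons, the 39-bp exon of Kif21b 13, the 57-bp exon of Hnrnpd 19 and the 147-bp exon of Ptprc 49. The 139-bp exons of Hnrnph1 and Hnrnph3, of 2 related genes, are identical at 126 of 139 bases (90.6%), and their length shifts the frame when they are skipped, as do those of Clk2, Clk4 and Cenpt.
Ptprc 147 bp: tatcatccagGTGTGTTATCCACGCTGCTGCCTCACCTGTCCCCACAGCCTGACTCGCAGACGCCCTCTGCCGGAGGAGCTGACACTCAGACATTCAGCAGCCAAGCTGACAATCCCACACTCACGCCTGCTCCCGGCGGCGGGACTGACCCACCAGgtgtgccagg
Hnrnph1 139 bp: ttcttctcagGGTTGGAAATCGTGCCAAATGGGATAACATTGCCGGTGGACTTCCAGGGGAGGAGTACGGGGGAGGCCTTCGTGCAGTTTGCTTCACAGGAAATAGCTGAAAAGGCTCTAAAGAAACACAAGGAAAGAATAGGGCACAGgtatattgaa
Hnrnph3 139 bp: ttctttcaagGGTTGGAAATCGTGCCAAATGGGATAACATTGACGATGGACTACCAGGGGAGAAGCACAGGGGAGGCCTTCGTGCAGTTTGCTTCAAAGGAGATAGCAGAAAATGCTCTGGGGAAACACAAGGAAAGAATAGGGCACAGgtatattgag
Hnrnpd 57 bp: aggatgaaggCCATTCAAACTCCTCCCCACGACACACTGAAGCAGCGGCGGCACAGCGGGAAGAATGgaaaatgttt
Macf1 9 bp: gtctgctcagATCACAGAGtttcatgata
Macf1 63 bp: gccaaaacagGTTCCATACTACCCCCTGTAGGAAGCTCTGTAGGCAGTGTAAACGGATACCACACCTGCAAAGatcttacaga
Kif21b 39 bp: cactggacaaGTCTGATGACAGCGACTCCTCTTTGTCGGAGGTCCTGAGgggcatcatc
Ktn1 69 bp: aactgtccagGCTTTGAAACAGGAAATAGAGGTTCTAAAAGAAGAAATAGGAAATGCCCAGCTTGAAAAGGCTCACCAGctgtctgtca
Cenpt 43 bp: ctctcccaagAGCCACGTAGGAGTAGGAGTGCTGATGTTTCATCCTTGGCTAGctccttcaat
Clk2 88 bp: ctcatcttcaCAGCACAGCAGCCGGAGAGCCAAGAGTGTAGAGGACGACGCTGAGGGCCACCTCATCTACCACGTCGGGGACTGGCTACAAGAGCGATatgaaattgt
Clk4 91 bp: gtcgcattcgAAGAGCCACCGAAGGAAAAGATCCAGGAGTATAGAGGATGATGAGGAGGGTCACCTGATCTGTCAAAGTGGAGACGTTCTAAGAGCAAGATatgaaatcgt
Hdac7 111 bp: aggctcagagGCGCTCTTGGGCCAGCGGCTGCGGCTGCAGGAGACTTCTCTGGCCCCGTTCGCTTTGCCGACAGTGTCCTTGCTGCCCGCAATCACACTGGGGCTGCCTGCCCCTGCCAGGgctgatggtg

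The exons below, taken with both flanking introns, match only annotated transcripts of the nonsense-mediated decay class. The same exon beside other neighbouring exons was not looked up. Each is shown from 10 bases of the preceding exon up to the annotated stop codon, which is in capitals. The distance from the start of the exon to the first base of the stop codon, counted from 1, was 12 in Ddx39 (named Ddx39a in the files), 27 in U2af1, 28 in Prpf3, 32 in Srsf3 and 79 in Tra2b.
Ddx39 59 bp: gaacagctgggctccctttccTGA
U2af1 67 bp: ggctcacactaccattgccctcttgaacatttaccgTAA
Prpf3 96 bp: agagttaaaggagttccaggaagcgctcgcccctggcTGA
Srsf3 456 bp: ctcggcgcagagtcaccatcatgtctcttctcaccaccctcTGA
Tra2b 276 bp: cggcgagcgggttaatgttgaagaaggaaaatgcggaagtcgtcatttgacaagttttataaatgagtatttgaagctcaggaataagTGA

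The libraries listed 91360 to 102077 events, apart from KIKO naive 2 with 77789. The FPKM files give no read or junction numbers, so the depth behind a share is unknown. Of 7 T cell markers, Cd3e, Cd3d, Cd3g, Cd4 and Trbc2 were listed in all 12 libraries. No locus bore the name Lck, so its level is unknown. The T cell markers with a locus summed to 722 to 929 FPKM in KIKO activated and 1050 to 1240 in KI activated libraries. In naive libraries they summed to 1060 to 1160 in KIKO and 1390 to 1500 in KI. The 4 of 5 myeloid markers with a locus summed to 162 FPKM in KIKO activated 2 and 202 FPKM in KIKO naive 2. The other 10 libraries had 0 to 5.97 FPKM, and no locus bore the name Itgam. The 3 of 4 NK cell markers with a locus summed to 9.0 and 11.6 FPKM in the same 2 libraries and to at most 0.0887 FPKM elsewhere. No locus bore the name Klrb1c. The B cell markers Cd79a and Cd79b summed to at most 2.78 FPKM, and no locus bore the name Ms4a1. Cd8b1 and Cd8a together summed to 6.51 to 16.1 FPKM. In bulk RNA, a form used by fewer cells cannot be told apart from a form used less in each cell. The part of the myeloid and NK signal in the genotype differences below was not tested beyond leaving out each library. The adjusted p was no longer under 0.05 for 19 of the 43 exons called between activated genotypes without KIKO activated 2, and for 6 of the 25 called between naive ones without KIKO naive 2. Of the 68 called in KIKO activation, 38 were lost in this way without KIKO activated 2 and 30 without KIKO naive 2. Calls were also lost without libraries low in these markers, so these losses do not measure the part of the signal. By the limits given below, the count of 43 was 23 without KIKO activated 1, 24 without KI activated 1 and 41 without KIKO activated 2.

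Most of the 6279 exons were either almost always included or almost always skipped. Averaged over the 12 libraries, 3087 were included at 95% or more of their summed FPKM, 1881 at 5% or less, and 461 lay between 20 and 80%. The spread between libraries was wide for this middle class, with a median SD of 8.28 points in KIKO activated, 7.44 in KI activated, 11.3 in KIKO naive and 8.98 in KI naive cells. The median share over all exons was 93.24, 93.36 and 93.36% in the KIKO activated libraries, against 94.85, 94.39 and 94.58% in the KI activated ones. It was 92.97, 93.63 and 93.46% in KIKO naive libraries, against 94.57, 95.14 and 94.87% in KI naive ones. The medians of the genotypes thus did not overlap, while the mean share over all exons lay between 58.93 and 59.91% in all 12 libraries.

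**Figure D1:**
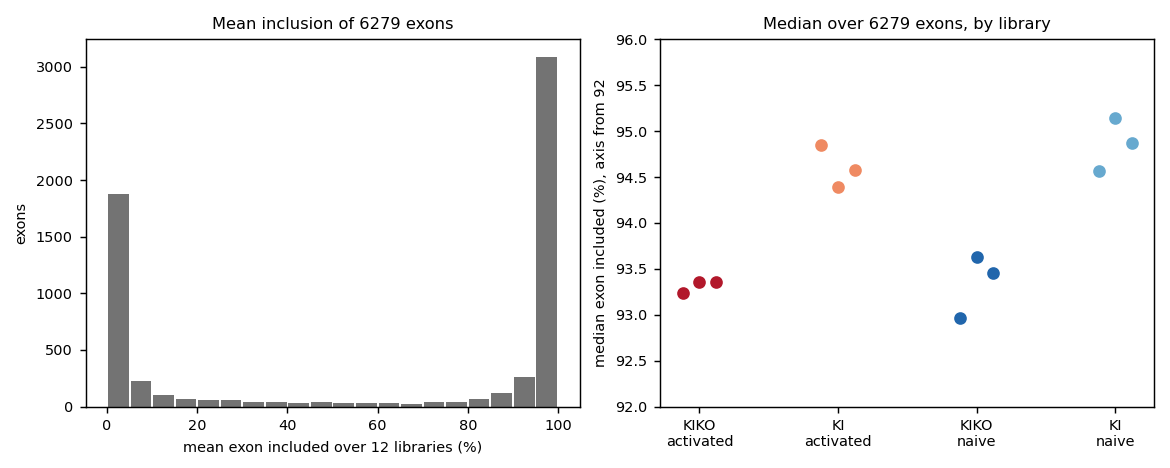
Left, number of exons (vertical axis) by their mean share of the included form over 12 libraries in bins of 5% (horizontal axis). Right, median share of the included form over 6279 exons in each library, 1 point a library, on an axis that begins at 92%. The bins at both ends hold 3087 and 1881 exons, and all 6 KIKO medians lie below all 6 KI medians.

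Of the 6279 exons, 4947 matched an exon of GENCODE M21 by their own length and that of both introns. Among these, 3840 were coding, 559 held coding and UTR sequence, 337 lay in UTRs and 211 in noncoding transcripts. The transcript that skips the exon was itself annotated for 2988 exons. Median length was 108 bp, and 111 exons were 27 bp or shorter, the size of microexons. Of the 3840 coding exons, 1781 (46.4%) had a length that is a multiple of 3. With both flanking introns, 353 of the 4947 matched exons (7.14%) occurred in transcripts of the nonsense-mediated decay class and in no protein-coding one. These are said below to occur only in decay-class transcripts, though the same exon beside other neighbours was not looked up.

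Changes were tested with limma on the log2 ratio of the included to the skipped form, with 1 FPKM added to each, and p-values were adjusted over all 6279 exons. Adding 1 FPKM makes the ratio follow the level of the gene, since the added amount weighs less as the sum rises. Of the 1473 exons called in KI activated against KI naive cells, 1313 changed by under 10 points of percent included and 312 had a percent and a ratio of opposite sign. An exon is therefore said here to have risen or fallen only if its adjusted p was under 0.05, its mean share differed by at least 10 points and the shares of the 3 libraries a side did not overlap. Where a call was lost in a second fit on the shares themselves, with 5 points added to each, the adjusted p of that fit is given. Its ratio does not follow gene level, though the level still enters the test through the intensity trend.

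Of the 4 pairwise comparisons, activation in KI cells had the most exons that met these limits. In KI cells, 65 exons rose in activated against naive cells (1.04% of those tested) and 84 fell (1.34%). The adjusted p alone called 23.5%. Whatever the sign of their ratio, the share of these was higher in 7.64% and lower in 9.87% of all exons. The remaining calls had no difference in mean share. Up and down below refer to the share in the same way. In KIKO cells, 35 rose (0.557%) and 33 fell (0.526%), 68 together (1.08%), where the adjusted p alone called 8.79% (2.9% up and 3.98% down). Between genotypes, 20 exons were higher in KIKO activated than in KI activated cells (0.319%) and 23 lower (0.366%), with 6.27% called by adjusted p alone (2.79% up and 2.47% down). In naive cells 6 were higher in KIKO (0.0956%) and 19 lower (0.303%), with 0.749% called by adjusted p alone (0.191% up and 0.462% down). The fit on shares called 58 exons in KI activation, 18 in KIKO activation, 9 between activated genotypes and 12 between naive ones by the same limits. The KIKO activation count of 68 was 35 without KIKO activated 1 and 38 without KIKO activated 2, where the count between activated genotypes was 41. The count of 43 between activated genotypes was 23 without KIKO activated 1, 24 without KI activated 1 and 27 without KI activated 3. The naive count of 25 was 45 without KIKO naive 2 and 42 without KIKO naive 3.

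By the match defined above, some of the exons that fell with activation occurred only in transcripts of the decay class. Of the 84 that fell in KI activated cells, 72 matched an annotated exon and 20 of these (27.8%) occurred only in decay-class transcripts. Of the 33 that fell in KIKO activated cells the share was 11 of 31 (35.5%), and among the exons that rose it was 1 of 61 (1.64%) in KI and 3 of 33 (9.09%) in KIKO cells. In KIKO activated against KI activated cells, 7 of the 16 matched exons that were higher (43.8%) and 1 of the 21 that were lower (4.76%) were of this kind. Of the 35 coding exons among those that fell in KI activated cells, 28 had a length that is a multiple of 3 (80.0%), against 46.4% of all coding members. The share was 59.2% of the coding exons that rose in KI activated cells. It was 64.5% of the coding exons that met the limits in any pairwise comparison. All these shares are descriptions, and those of decay-class exons are set beside the 7.14% of all matched members.

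Genes of RNA processing held several of the largest falls. Prpf3 encodes a protein of the U4/U6 small nuclear ribonucleoprotein. Its 96-bp exon at chr3:95757007-95757102 (minus strand) was included at 0.558, 1.97 and 0.997% in KI activated cells, against 54.9, 53 and 43.9% in KI naive cells (log2 ratio difference −4.32 ± 0.21 SE, adjusted p 8.28e-06). In KIKO cells it was at 1.85, 2.14 and 2.14% in activated libraries, against 47.7, 40.8 and 36.1% in naive ones (−3.39 ± 0.21 SE, adjusted p 4.54e-05). The included form itself stood at 0.367, 0.433 and 0.371 FPKM in KIKO activated and 0.135, 0.476 and 0.248 FPKM in KI activated cells, against 5.48 to 6.39 FPKM in all 6 naive libraries. Activated and naive libraries were thus far apart in both genotypes, and the fit on shares called both differences (adjusted p 8.11e-06 in KI and 5.31e-05 in KIKO cells).

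Ddx39, an RNA helicase of mRNA export, behaved alike. Its 59-bp exon at chr8:84448095-84448153 (plus strand) was at 6.85, 7.19 and 3.58% in KI activated cells, against 60.6, 47.4 and 55.1% in KI naive cells (adjusted p 8.75e-05). It was at 6.96, 9.88 and 9.48% in KIKO activated cells, against 37.6, 48.0 and 33.8% in KIKO naive cells (adjusted p 0.00228). The level of the locus rose by 2.2 on the log2 scale in KI and 1.38 in KIKO activated cells (adjusted p 1.60e-07 and 1.63e-05), so the decay-class form fell as a share while the gene rose.

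Among SR proteins and their relatives, exons of Srsf2, Srsf3, Tra2b and Srsf9 fell. The 104-bp exon of Srsf2 at chr11:116742474-116742577 (minus strand), which the annotation places in the UTR, was at 2.31, 3.85 and 3.58% in KI activated, against 52.8, 36.0 and 48.4% in KI naive cells (−4.48 ± 0.39 SE, adjusted p 0.000142). It was at 16.9, 8.76 and 20.8% in KIKO activated, against 56.7, 51.7 and 60.6% in KIKO naive cells (−2.84 ± 0.39 SE, adjusted p 0.00331). No activated library reached any naive one. The KIKO activated libraries all lay above the KI activated ones, by 12.2 points on average (adjusted p 0.01, and 0.135 in the fit on shares).

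Srsf3 is known to limit its own level through its 456-bp exon, at chr17:29258428-29258883 (plus strand). The exon was at 6.55, 13.0 and 11.7% in KI activated cells, against 67, 59.6 and 57.3% in KI naive cells (−3.70 ± 0.64 SE, adjusted p 0.00252). In KIKO activated cells it was at 10.5, 21.5 and 32.8%, against 66.5, 28.8 and 67% in KIKO naive cells. There KIKO naive 2, the library with fewer events and with myeloid markers, overlapped the activated libraries, and the exon did not meet the limits.

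The 276-bp exon of Tra2b at chr16:22077736-22078011 (minus strand), of a splicing activator related to the SR proteins, was at 27.2, 18.7 and 14.0% in KI activated, against 60.8, 64.5 and 59.2% in KI naive cells (adjusted p 0.000966). In KIKO cells it was at 37.6, 30.9 and 37.3% in activated, against 73.2, 49.6 and 64.7% in naive libraries. Here the adjusted p of 0.0301 was 0.167 in the fit on shares, and up to 0.101 without 1 of KIKO naive 1, KIKO naive 3, KIKO activated 1 or KIKO activated 2. The 90-bp exon of Srsf9 was already rare. It was at 0.0, 1.35 and 2.36% in KIKO activated against 10.7, 18.7 and 14.9% in KIKO naive cells (adjusted p 0.00819), while KI activated (0.0 to 1.67%) and KI naive libraries (1.86 to 7.41%) differed by under 10 points.

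Snrnp70, a protein of the U1 particle that marks the start of introns, holds a long alternative exon of 1360 bp, annotated in noncoding transcripts. It was at 10.0, 6.75 and 6.54% in KI activated, against 37.8, 28.4 and 30.1% in KI naive cells (adjusted p 0.000857). It was at 16.0, 12.4 and 21% in KIKO activated, against 59.3, 44.6 and 44.4% in KIKO naive cells (adjusted p 0.00461). U2af1, part of the factor that reads the end of introns, has 2 alternative exons of 67 bp. Both matched decay-class transcripts by exon and introns, which does not tell whether either exon alone sends the RNA to decay. The one at chr17:31870620-31870686 (minus strand) was at 51.4, 62.2 and 39.3% in KI activated, against 87.2, 93.5 and 84.0% in KI naive cells (adjusted p 0.00184). KIKO activated cells kept it at 90.3, 87.2 and 91.0%, above all KI activated libraries (38.5 points, 2.21 ± 0.34 SE, adjusted p 0.00564), next to 97.3, 98.0 and 94.4% in KIKO naive cells. Its partner at chr17:31871476-31871542 fell to 7.64, 11.6 and 5.76% in KI activated, against 24.3, 26.5 and 16.8% in KI naive cells (adjusted p 0.00689, and 0.0932 in the fit on shares).

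**Figure D2:**
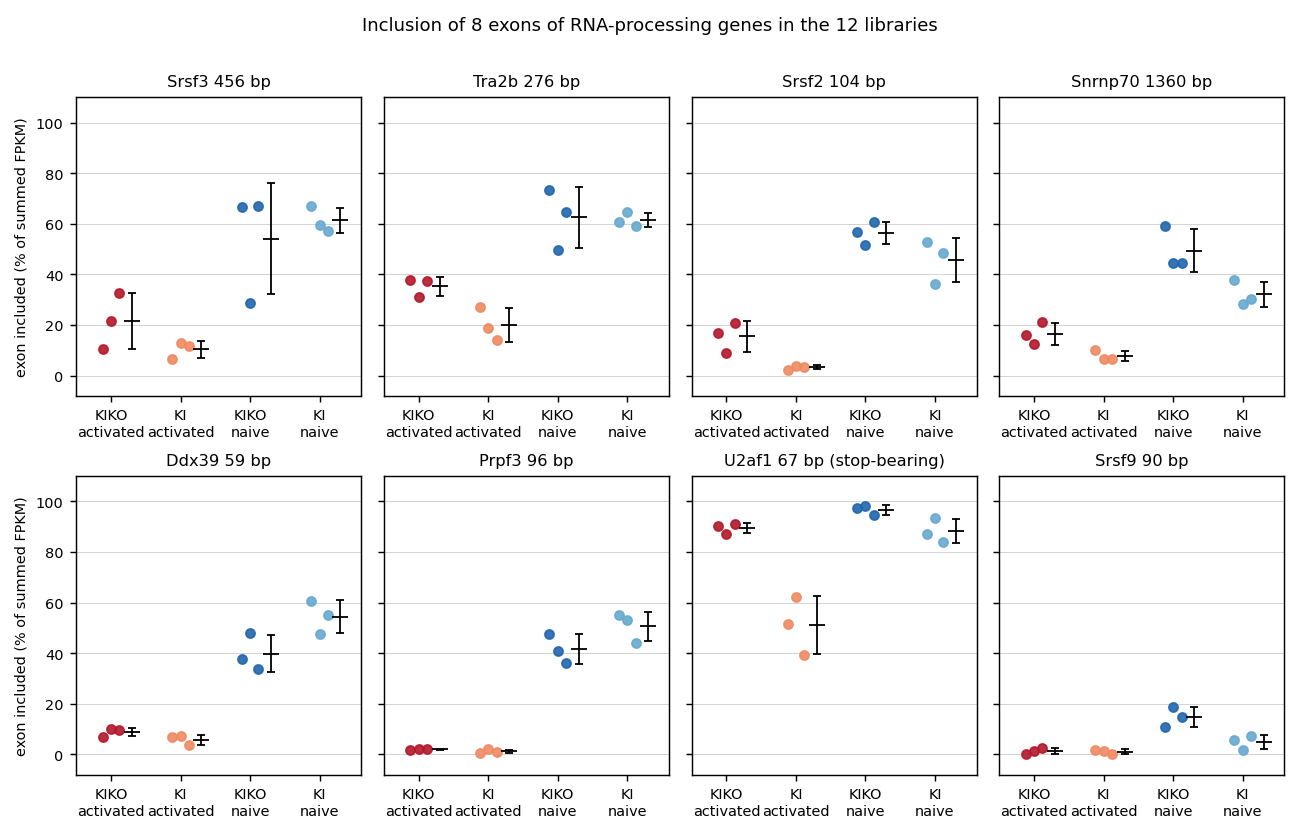
Share of the included form (vertical axis, percent of the summed FPKM of both forms) of 8 exons of RNA-processing genes, by group. Coloured points are libraries, and the black bar is the mean with SD over 3 libraries. Activated libraries lie below naive ones for Ddx39, Prpf3, Snrnp70 and Srsf2 in both genotypes, and U2af1 stays at 87.2 to 91.0% in KIKO activated cells.

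Coding exons of Hnrnph1, Hnrnph3, Hnrnpd and Ptbp1, of the hnRNP family, rose in KI activated cells. The 139-bp exon of Hnrnph1 at chr11:50272286-50272424 (plus strand) was at 100% to the decimal shown in all 3 KI activated libraries, against 45.8, 33.1 and 37.8% in KI naive cells (8.23 ± 0.54 SE, adjusted p 2.89e-05). The skipped form of the KI activated libraries stood at 0.0828, 0.0362 and 0.0696 FPKM, next to 197 to 207 FPKM of the included form. KIKO activated cells had the exon at 60.3, 89.0 and 63.1%, against 20.9, 27.8 and 34.0% in KIKO naive cells (adjusted p 0.0133, and 0.0843 in the fit on shares). All 3 KIKO activated libraries lay below the KI activated ones (−29.2 points, −6.17 ± 0.54 SE, adjusted p 0.000908).

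The near-identical exon of Hnrnph3 at chr10:62854539-62854677 (minus strand) showed the same order. It was at 12.4, 32.7 and 16.6% in KIKO activated, against 68.0, 58.8 and 84.0% in KI activated cells, and at 9.92, 0.0 and 16.4% in KIKO naive, against 15.5, 24.0 and 18.7% in KI naive cells. The rise in KI activated cells (50.8 points) had an adjusted p of 0.00778, and 0.0897 in the fit on shares. The genotype difference of −49.7 points in activated cells had an adjusted p of 0.032, and 0.154 in the fit on shares, and was lost without any 1 of KIKO activated 1, KIKO activated 3, KI activated 1 or KI activated 3 (up to 0.112). Reads of Hnrnph1 and Hnrnph3 could be shared where their sequences are alike, so the smaller gene is the less certain.

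Hnrnpd binds AU-rich elements of unstable mRNAs. Its 57-bp exon at chr5:100124393-100124449 (minus strand) was at 81.0, 63.3 and 82.5% in KI activated cells, against 30.8, 10.2 and 18.3% in KI naive cells (adjusted p 0.00258). In KIKO cells the shares were 58.6, 65.5 and 28.5% in activated libraries, against 22.2, 31.5 and 20.6% in naive ones, which overlap. Ptbp1, a repressor of many exons, had its 34-bp exon at 97.6, 96.9 and 97.9% in KI activated, against 90.2, 82.0 and 88.6% in KI naive cells (adjusted p 0.000473). The 76-bp exon of Sf1, the branch point binding protein, was at 97.8, 98.2 and 98.0% in KI activated, against 76.0, 86.0 and 83.1% in KI naive cells (adjusted p 0.00095). In the same family, exons found only in decay-class transcripts fell in Hnrnpl and Hnrnpdl. The 70-bp exon of Hnrnpl was at 1.45, 2.21 and 2.12% in KI activated, against 20.1, 3.62 and 16.6% in KI naive cells (−11.5 points, adjusted p 0.0278, 0.385 in the fit on shares, and up to 0.0968 without any 1 of KI naive 1, KI naive 3 or the KI activated libraries). The 105-bp UTR exon of Hnrnpdl was used less too (27.3, 41.2 and 66.3% in KI activated, against 75.5, 88.3 and 81.7% in KI naive cells, adjusted p 0.00973 and 0.11 in the fit on shares).

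Of the 3 variable exons of Ptprc, the middle one fell with activation in both genotypes, while the outer ones, which were rare, rose where they met the limits. The middle 147-bp exon at chr1:138047758-138047904 (minus strand) was at 55.2, 54.8 and 64.3% in KI activated, against 90.6, 90.1 and 94.8% in KI naive cells (−2.98 ± 0.40 SE, adjusted p 0.000721). It was at 24.5, 19.9 and 30.9% in KIKO activated, against 76.3, 55.6 and 67% in KIKO naive cells (−2.58 ± 0.40 SE, adjusted p 0.00602). KIKO libraries lay below KI libraries in both states, by 33.0 points in activated cells (adjusted p 0.0172) and 25.5 points in naive cells (adjusted p 0.0219). In activated cells the included form was at 59.9, 49.2 and 77.0 FPKM in KIKO, against 188, 189 and 187 FPKM in KI libraries, and the skipped form at 185, 199 and 172 FPKM in KIKO, against 153, 156 and 104 FPKM in KI libraries.

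Both genotype calls of Ptprc were near the limit. In activated cells the adjusted p was 0.0711 in the fit on shares and up to 0.066 without KIKO activated 1 or KI activated 3. In naive cells it was 0.0498 in the fit on shares and 0.0718 without KI naive 3. KIKO naive 2 and KIKO activated 2, with the myeloid markers, had the lowest share of their groups, and no call was lost without either. The outer 141-bp exon at chr1:138045492-138045632 (minus strand) was at 26.6, 12.6 and 16.8% in KI activated, against 6.27, 1.63 and 5.30% in KI naive cells, and at 9.98, 10.2 and 16.8% in KIKO activated, against 3.51, 0.0 and 0.533% in KIKO naive cells (adjusted p 0.0206 and 0.0154, and 0.107 and 0.137 in the fit on shares). The KI call was lost without KI naive 2, KI activated 1 or KI activated 3 (up to 0.0713). The 129-bp exon at chr1:138050194-138050322 (minus strand) was at 10.3, 10.8 and 17.3% in KIKO activated, against 3.15, 0.0 and 2.07% in KIKO naive cells (11.1 points, adjusted p 0.0226, 0.118 in the fit on shares, and up to 0.0621 without KIKO naive 2 or any 1 of the KIKO activated libraries). In KI cells it was at 13.4, 5.11 and 11.2% in activated, against 2.47, 4.81 and 0.812% in naive libraries, a difference under 10 points. The mean summed FPKM of the forms paired at the 141-bp exon was 62.0 in KIKO activated and 208 in KI activated cells, and at the middle exon it was 247 and 326, so the shares of the exons are not of the same set of transcripts.

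Other large changes of coding exons were at Macf1, Kif21b and Ktn1. Macf1 links actin and microtubules. Its 9-bp exon at chr4:123280342-123280350 (minus strand) was listed at 0 in all 6 activated libraries. It was at 87.1, 0.0 and 60.5% in KIKO naive and at 99.7, 86.0 and 93.1% in KI naive cells, and the fall in KI cells (−92.9 points, −8.62 ± 1.71 SE, adjusted p 0.00539) was the largest among all exons that met the limits. KIKO naive 2 lacked the exon, so the KIKO groups overlap. The 63-bp exon of the same gene at chr4:123335396-123335458 (minus strand) was at 48.1, 75.6 and 61.4% in KI activated, against 0.334, 4.65 and 18% in KI naive cells (adjusted p 0.00317). In KIKO cells it was at 21.4, 25 and 19.8% in activated and at 12.9, 22.9 and 33.3% in naive libraries, which overlap.

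Kif21b is a kinesin. Its 39-bp exon at chr1:136094900-136094938 (plus strand) was at 70.6, 58.8 and 67.4% in KI activated, against 33.6, 32.0 and 26.9% in KI naive cells (2.04 ± 0.25 SE, adjusted p 0.000493). In KIKO activated cells it was at 37.5, 47.1 and 40.5%, below all KI activated libraries (−23.9 points, adjusted p 0.0145), a call lost without KIKO activated 1 or KI activated 3 (up to 0.0514). Kinectin (Ktn1), an endoplasmic reticulum protein that binds kinesin, held 5 exons that met the limits in some comparison. Its 69-bp exon at chr14:47941877-47941945 (plus strand) was at 61.2, 51.0 and 59.2% in KIKO activated, against 92.6, 96.8 and 93.1% in KI activated cells (−2.85 ± 0.32 SE, adjusted p 0.00228). Naive libraries stood at 61.9, 55.4 and 71.9% in KIKO and 69.7, 64.7 and 53.7% in KI cells, so the rise of 31.5 points was in KI activated cells (adjusted p 0.000493). The 84-bp exon went the opposite way, at 84.1, 92.3 and 91.7% in KIKO activated, against 62.7, 73.1 and 68.4% in KI activated cells (adjusted p 0.0137, and 0.0603 in the fit on shares).

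The 72-bp exon of Ktn1 fell in both genotypes. It was at 39.8, 29.3 and 33.6% in KI activated, against 91.1, 78.3 and 99.5% in KI naive cells (adjusted p 0.000825). It was at 37.9, 41.5 and 36.6% in KIKO activated, against 85.6, 70.7 and 74.2% in KIKO naive cells (adjusted p 0.0286, 0.259 in the fit on shares, and up to 0.0851 without any 1 of KIKO naive 1, KIKO naive 3 or the KIKO activated libraries). The level of the Ktn1 locus differed by −0.01 to −0.04 on the log2 scale in the comparisons in which its exons met the limits. Fmnl3, a formin that builds actin filaments, had its 153-bp exon at 49.8, 51.0 and 65.4% in KI activated cells and at 0% in all 3 KI naive libraries (adjusted p 0.000816). The 108-bp exon of Ep400, a chromatin remodeller, was at 75.3, 70.5 and 63.0% in KI activated, against 9.90, 17.4 and 9.66% in KI naive cells (adjusted p 0.00236). Ift80, an intraflagellar transport protein, had its 65-bp exon at 100% in all KI activated libraries, against 46.5, 58.0 and 77.9% in KI naive cells (adjusted p 0.00322), and at 100, 88.9 and 100% in KIKO activated, against 41.1, 44.0 and 58.4% in KIKO naive cells (adjusted p 0.00942).

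**Figure D3:**
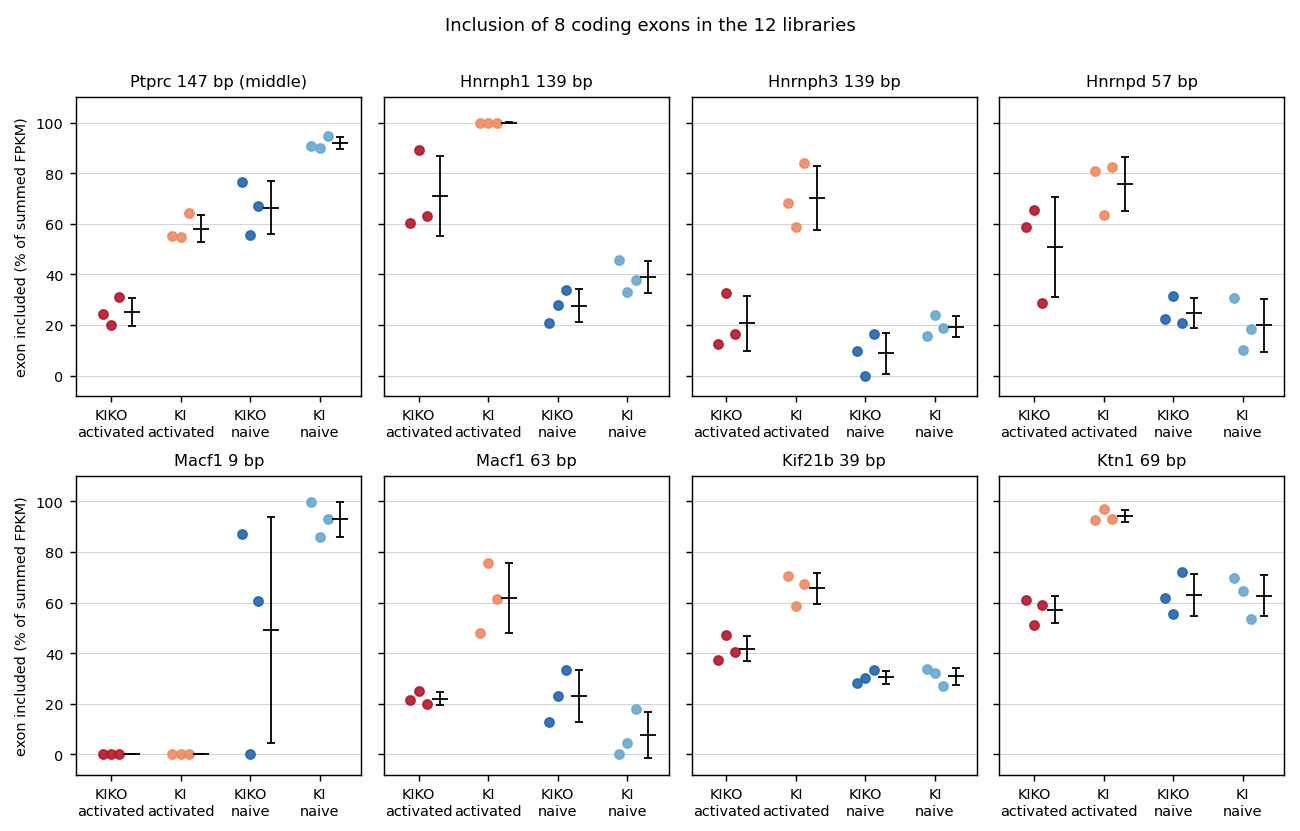
Share of the included form (vertical axis, percent of the summed FPKM of both forms) of 8 coding exons by group. Coloured points are libraries, and the black bar is the mean with SD over 3 libraries. The Ptprc exon is lowest in KIKO activated cells (24.5, 19.9 and 30.9%), and the Hnrnph1, Ktn1 and Kif21b exons are highest in KI activated cells.

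The KI and the KIKO activation contrasts share no library, so the changes of one can be read in the other. All 12 libraries give 1 estimate of the spread, so calls in both are not independent. The share of the same sign over all exons was not counted. Of the 149 exons that changed in KI cells, 128 (85.9%) had a difference of the same sign in KIKO cells and 65 of them one of at least 10 points. The median size was 22.8 points in KI cells, and 8.45 points in the same direction in KIKO cells. Selection on the KI difference enlarges the KI figure, and the reverse reading gave 48 of 68 exons (70.6%) with the same sign and medians of 19.8 points in KIKO and 7.99 points in KI cells. In both genotypes 26 exons met the limits, 17.4% of the KI list and 38.2% of the KIKO list, and all 26 changed in the same direction. The fit on shares called 9 of the 26 in both genotypes, 8 in 1 and 9 in neither. For 10 of the 26 the adjusted p stayed under 0.05 in both genotypes whichever library was left out.

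These 26 are named here after their values were seen. Lower with activation in both were exons of Ktn1 (72 bp), Prpf3, Ddx39, Srsf2, Tra2b, Hnrnpdl, Akap8, Ptprc (147 bp), Spen, Lsm6, Snrnp70, Nfu1, Abhd16a, Arglu1, Max and Ehmt1. Higher in both were exons of Bicdl1, Ptprc (141 bp), Psmg4, Tmem134, Exoc7, Fryl, Add1, Ift80, Fmnl3 and Hnrnph1. The 76-bp exon of Psmg4, a chaperone of proteasome assembly, rose by 21.3 points in KIKO and 18.9 points in KI activated cells, with adjusted p of 0.137 and 0.141 in the fit on shares. Its KIKO call was lost without any 1 of KIKO naive 2, KIKO naive 3 or the KIKO activated libraries (up to 0.0906), and its KI call without KI naive 2, KI naive 3, KI activated 2 or KI activated 3 (up to 0.0809). The 85-bp exon of Max, the partner of Myc, fell by 16.0 points in KIKO and by 21.7 points in KI activated cells, and the fit on shares called both.

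**Figure D4:**
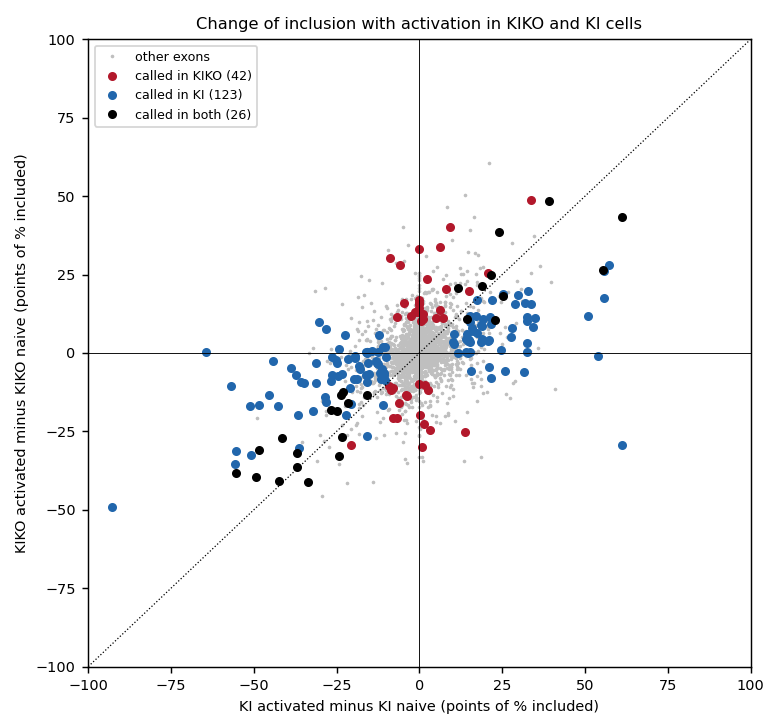
Difference in mean share between activated and naive cells, in points, for 6279 exons in KIKO cells (vertical axis) and KI cells (horizontal axis). Black points are the 26 exons that met the limits in both genotypes, blue ones in KI cells alone, red ones in KIKO cells alone, and the dotted line marks equal change. Most of the 149 exons of KI cells lie closer to 0 on the KIKO axis, with medians of 8.45 against 22.8 points.

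In naive cells, the exons that differed between genotypes were mostly lower in KIKO. Srrm2, a scaffold of nuclear speckles, had its 261-bp exon at chr17:24030791-24031051 (plus strand), found only in decay-class transcripts, at 1.30, 0.0 and 1.45% in KIKO naive, against 28.1, 38.9 and 41.9% in KI naive cells (−5.18 ± 0.76 SE, adjusted p 0.0141). In activated cells it was at 0.786, 1.24 and 9.16% in KIKO, against 37.4, 10.5 and 27.2% in KI libraries. The adjusted p there was 0.0374, and 0.225 in the fit on shares, and it rose to as much as 0.117 without 1 of 8 libraries, among them every KI naive one. All 6 KIKO libraries thus held less of this exon than all 6 KI libraries.

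Cenpt, a centromere protein that holds the kinetochore, had its 43-bp exon at chr8:106575645-106575687 (minus strand) at 61.3, 70.3 and 69.2% in KIKO naive cells and at 100% in all 9 other libraries (adjusted p 0.000402 for the genotypes in naive cells). The skipped form was at 2.96, 2.59 and 2.67 FPKM in KIKO naive and at 0 in the other libraries. The 111-bp exon of Hdac7, a class IIa histone deacetylase, at chr15:97706541-97706651 (minus strand), was at 0.0, 6.73 and 0.0% in KIKO naive, against 31.5, 31.9 and 22.0% in KI naive cells (−3.25 ± 0.43 SE, adjusted p 0.00804). In activated cells it was at 11.7, 13.9 and 15.7% in KIKO, against 19.4, 21 and 24.6% in KI libraries, a difference under 10 points.

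Clk4, a kinase of SR proteins, had the largest rise. Its 91-bp exon at chr11:51163905-51163995 (plus strand) was at 78.2, 93.7 and 79.6% in KIKO naive, against 50.5, 44.0 and 49.9% in KI naive cells (2.49 ± 0.42 SE, adjusted p 0.0234, and up to 0.0911 without 1 of the KI naive libraries). The 87-bp exon of Terf1, a telomere protein, was at 88.9, 100 and 100% in KIKO naive, against 52.4, 73.1 and 68.6% in KI naive cells (adjusted p 0.0198, and 0.0672 in the fit on shares). The files list this locus as Gm37509. Aifm1, the mitochondrial apoptosis-inducing factor, had its 143-bp exon at 100% in every KIKO naive library, against 83.2, 92.8 and 89.2% in KI naive cells (adjusted p 0.0198, and 0.0534 without KIKO naive 1). The 96-bp exon of Znrf1, a ubiquitin ligase, was at 98.3, 100 and 100% in KIKO naive, against 86.8, 92.1 and 78.5% in KI naive cells (adjusted p 0.00607). Ypel3 had its 44-bp exon at 72.5, 65.5 and 75.3% in KIKO naive, against 94.7, 91.9 and 94.3% in KI naive cells (adjusted p 0.0146), and the 116-bp exon of Ehmt2, a histone H3 lysine methyltransferase, was at 85.5, 71.7 and 84.5% in KIKO naive and 100% in all KI naive libraries (adjusted p 0.0149, and 0.0672 in the fit on shares).

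In activated cells the largest genotype differences were at Gbp4 and Clk2. The 207-bp exon of Gbp4, an interferon-induced GTPase whose locus the files name Gbp11, was at 99.0, 98.0 and 98.2% in KIKO activated, against 43.7, 11.7 and 17.4% in KI activated cells (5.95 ± 0.77 SE, adjusted p 0.00254). The locus itself was higher by 2.35 on the log2 scale in KIKO activated cells (adjusted p 2.18e-07). The exon occurs only in decay-class transcripts. Guanylate-binding protein genes have close copies that can share reads, so the share of this exon is uncertain. Clk2, another kinase of SR proteins, had its 88-bp exon at chr3:89076922-89077009 (plus strand), listed in the files under Fam189b, at 33.7, 52.4 and 35.7% in KIKO activated, against 98.5, 98.9 and 98.6% in KI activated cells (−4.57 ± 0.62 SE, adjusted p 0.00314). In naive cells it was at 52.8, 26.7 and 60.0% in KIKO, against 94.2, 63.9 and 91.3% in KI libraries, a difference that did not pass the test. All 6 KIKO libraries lay below all 6 KI libraries, with the skipped form at 7.08 to 14.2 FPKM in KIKO and 0.244 to 11.6 FPKM in KI cells.

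Malt1, the protease of the T cell receptor pathway to NF-kB, had its 64-bp decay-class exon at 13.3, 20.9 and 15.9% in KIKO activated, against 2.35, 2.83 and 1.08% in KI activated cells (adjusted p 0.00597, and 0.144 in the fit on shares). The 64-bp exon of Cd48, a ligand of lymphocyte receptors, matched no annotated exon and was at 38.0, 47.7 and 54.6% in KIKO activated, against 15.3, 12.7 and 11.7% in KI activated cells (adjusted p 0.00733, and 0.107 in the fit on shares). Pitpnm2, a lipid transfer protein, had its 162-bp exon at 8.52, 20.5 and 18.4% in KIKO activated, against 55.9, 57.9 and 51.7% in KI activated cells (adjusted p 0.015, 0.195 in the fit on shares, and 0.0527 without KIKO activated 1). For Tnrc6c, a protein of microRNA silencing, the 150-bp exon was at 61.4, 67.8 and 78.6% in KIKO activated, against 100, 92.3 and 95.4% in KI activated cells (adjusted p 0.022, and 0.0795 in the fit on shares). The last of these calls was lost without any 1 of KIKO activated 1, KIKO activated 2, KI activated 1 or KI activated 3 (up to 0.0723).

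Srrt, a partner of the nuclear cap-binding complex, had a 617-bp exon that matched no annotated exon and was listed at 0 in all 6 activated libraries. It was at 27.2, 66.2 and 0.0% in KIKO naive and at 70.1, 58.3 and 37.8% in KI naive cells, and its fall in KI cells had an adjusted p of 0.000493, and of 0.113 in the fit on shares. The 103-bp exon of Fnbp4, a formin-binding protein, was at 16.6, 25 and 31.7% in KI activated, against 80.9, 70.6 and 67.2% in KI naive cells (adjusted p 0.00139). KIKO activated libraries lay above the KI activated ones, at 58.5, 47.5 and 73.1% (adjusted p 0.0242, 0.13 in the fit on shares, and up to 0.0685 without any 1 of KIKO activated 1, KIKO activated 3, KI activated 1 or KI activated 2). The 77-bp UTR exon of Zfp740, a zinc finger gene, showed the same order, at 99.7, 99.3 and 93.3% in KIKO activated, against 85.5, 82.5 and 67% in KI activated cells (adjusted p 0.0111, and 0.0795 in the fit on shares). Sh2b3, an adaptor that dampens cytokine signals, had its 88-bp UTR exon at 44.6, 36.6 and 46.5% in KIKO activated, against 4.54, 0.0 and 21.7% in KIKO naive cells (adjusted p 0.0146, 0.109 in the fit on shares, and 0.0523 without KIKO activated 1), while KI libraries of both states lay between 38.3 and 48.4%.

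The genotype contrasts in activated and in naive cells also share no library, but they share the estimate of the spread. Of the 25 exons that differed in naive cells, 20 had a difference of the same sign in activated cells, and of the 43 that differed in activated cells, 35 (81.4%) had the same sign in naive cells. For these contrasts too, the share of the same sign over all exons was not counted. The limits were met in both states by 5 of the 25 naive and of the 43 activated exons (20% and 11.6%), all lower in KIKO, in Srrm2, Senp6, Ptprc, Ypel3 and Chd3. Senp6, a SUMO protease, had its 21-bp exon at 23.9, 29.2 and 10.5% in KIKO activated, against 50.3, 43.8 and 41.2% in KI activated cells, and at 16.0, 11.0 and 8.08% in KIKO naive, against 51.7, 36.6 and 40.1% in KI naive cells. Its adjusted p values of 0.048 and 0.0349 were 0.27 and 0.0795 in the fit on shares and rose to as much as 0.117 and 0.125 when 1 library was left out, whichever of 11 and of 9 libraries that was. The activated difference of Ypel3 had an adjusted p of 0.0358, 0.139 in the fit on shares, and up to 0.11 without any 1 of KIKO activated 1, KIKO activated 3, KI activated 1 or KI activated 2. Chd3, a chromatin remodeller named here after its values were seen, had a 231-bp exon that fell by 18.2 points in KIKO activated against KI activated and by 16.0 points in KIKO naive against KI naive cells (adjusted p 0.00324 and 0.00493, and 0.0464 and 0.0687 in the fit on shares). Of the 5, it was the one whose activated difference the fit on shares called.

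**Figure D5:**
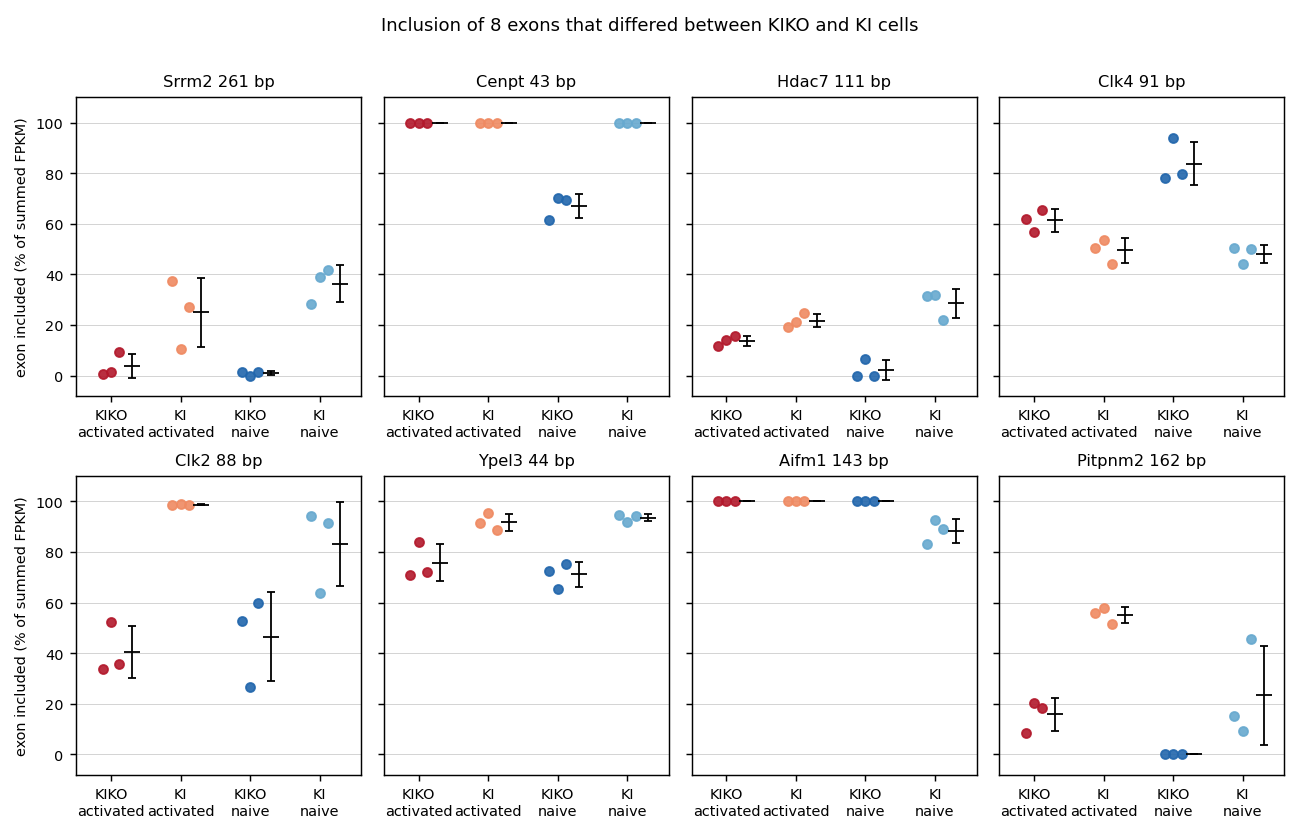
Share of the included form (vertical axis, percent of the summed FPKM of both forms) of 8 exons that differed between KIKO and KI cells, by group. Coloured points are libraries, and the black bar is the mean with SD over 3 libraries. For Srrm2, Clk2 and Ypel3 all 6 KIKO libraries lie below all 6 KI libraries, while Cenpt separates only KIKO naive cells, at 61.3 to 70.3%.

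The interaction of genotype and activation called 14 exons (0.223%), 6 with a positive difference (0.0956%) and 8 with a negative one (0.127%). Of these, 2 differed by at least 10 points upward (0.0319%) and 4 downward (0.0637%). The change of the Cenpt exon with activation was 33.0 points larger in KIKO cells, where the share was 100% in activated libraries, against 61.3, 70.3 and 69.2% in naive ones (adjusted p 0.00454). For Aifm1 it differed by −11.6 points, and KIKO cells had 100% in all 6 libraries (adjusted p 0.0138). For Ktn1 (69 bp) it differed by −37.4 points (adjusted p 0.0366) and for Hnrnph1 by −17.8 points (adjusted p 0.02, and 0.519 in the fit on shares), and both calls were lost without some libraries. The calls of Cenpt and Aifm1 were kept without any 1 of the 12 libraries. The count of 6 ranged from 2 to 13 when 1 library was left out.

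Counts over lists of genes follow, each beside the share of all members. Of 86 exons in 38 loci of SR and hnRNP genes, 5 rose and 5 fell in KI activated cells (11.6% of the list, against 2.37% of all members), 1 rose and 5 fell in KIKO activated cells (6.98% against 1.08%), 2 were higher and 3 lower in KIKO activated than in KI activated cells (5.81% against 0.685%), and 1 was higher in KIKO naive cells (1.16% against 0.398%). Of 59 exons in 31 loci of the core spliceosome and RNA processing, 1 rose and 7 fell in KI activated cells (13.6% against 2.37%), and none rose and 4 fell in KIKO activated cells (6.78% against 1.08%). Their mean difference was −3.85 points in KI and −3.02 points in KIKO activation, against −0.161 and 0.168 points over all members, with medians of −0.466 and 0.0 points against 0.0 over all members. Beside the exons above, the falls in KI cells were at Luc7l (−23.5 points), Luc7l2 (−26.8) and Prpf39 (−18.7), and those in KIKO cells at the RNA helicase Dhx9 (−30.1) and at Srrm1 (−20.9). The fit on shares called none of these 5 (adjusted p 0.237 to 0.309), and each was lost without some libraries.

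Of 74 exons in 37 loci of proteasome, ubiquitin and autophagy genes, none met the limits in 3 of the 4 pairwise comparisons, though the adjusted p alone called 14 in KIKO activated against KI activated cells (18.9%, against 6.27% of all members), 5 in KIKO naive against KI naive cells (6.76% against 0.749%) and 19 in KIKO activation (25.7% against 8.79%). Those changes were under 10 points or had overlapping libraries. In KI activation the adjusted p alone called 29 (39.2% against 23.5%), and 1 exon met the limits and fell (1.35% against 2.37%), the 175-bp exon of the deubiquitinase Usp7, at 5.16, 2.32 and 5.89% in KI activated, against 23.3, 44.1 and 42.1% in KI naive cells (adjusted p 0.00159). The fit on shares called it too (adjusted p 0.0319). The list did not hold every gene of this kind. Outside it, exons of Psmg4 (21.3 points in KIKO activation) and Smurf2 (24.9 points between activated genotypes) met the limits, among others. So did those of Znrf1 (13.6 points) and Birc2 (−18.8 points) between naive genotypes. The fit on shares called Znrf1 and Birc2, and not Psmg4 and Smurf2 (adjusted p 0.137 and 0.163). Of 99 exons in 46 loci of T cell receptor signalling and surface genes, 2 rose and 2 fell in KI activation (4.04% against 2.37% of all members), 3 rose and 1 fell in KIKO activation (4.04% against 1.08%), 1 was higher and 1 lower between activated genotypes (2.02% against 0.685%), and 1 was lower between naive ones (1.01% against 0.398%). Besides Ptprc and Malt1 these were exons of Arhgef1, a guanine nucleotide exchange factor (−24.8 points in KI activation), and Ptk2b, a tyrosine kinase (14.5 points), with adjusted p of 0.251 and 0.0835 in the fit on shares. Of 27 exons in 14 loci of p53, apoptosis and DNA repair genes, the Aifm1 exon was the one that met the limits, in KIKO naive against KI naive (3.7% against 0.398% of all members) and in KI activation (3.7% against 2.37%). This list did not hold Birc2, which restrains cell death and whose exon met the limits between naive genotypes. Of 72 exons in 26 loci known to respond to T cell activation, 1 rose and 2 fell in KI activation (4.17% against 2.37% of all members) and 3 rose and 2 fell in KIKO activation (6.94% against 1.08%), those of Ptprc, Malt1, Mef2d (−10.9 points in KI cells, adjusted p 0.439 in the fit on shares) and Tial1 (−19.8 points in KIKO cells, 0.212). The medians of all 6 lists lay between −0.466 and 0.0 points in the 4 pairwise comparisons, against 0.0 over all members.

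The levels of the SR and hnRNP genes themselves moved with activation and genotype. Of 46 tested loci, 27 rose and 12 fell in KI activated against KI naive cells (32.2% and 29.5% of all loci did), with a median log2 difference of 0.495 against −0.00584 over all loci. In KIKO activated against KIKO naive cells, 11 rose and 12 fell (25.1% and 22.2% of all loci), with a median of −0.005. In KIKO activated against KI activated cells 9 were higher and 25 lower (20.7% and 19.3% of all loci), with a median of −0.375 against 0.0404. Srsf3 fell by 0.60, Srsf7 fell by 0.90, Srsf9 fell by 0.94, Hnrnph1 fell by 0.92 and Hnrnpll, the known repressor of the Ptprc exons, fell by 0.89 on the log2 scale (adjusted p 0.00118, 0.00443, 6.06e-05, 0.000681 and 0.000135), while Clk1, Clk3 and Clk4 were higher by 0.83, 0.67 and 0.79 (adjusted p 0.000673, 0.000215 and 0.00132). Between naive genotypes 6 were higher and 1 lower (6.46% and 3.9% of all loci), and none of these 8 genes passed the test. The part of these levels in the exon shares was not tested.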

How the data were processed

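Poly(A) RNA of 12 libraries was sequenced from 15 ng of total RNA, per the labels' protocols. The submitters' processing notes name HISAT2 2.2.0, cutadapt 2.9 and FastQC 0.11.9, without saying how each was used. The values are FPKM deposited by the authors, 1 file a library, for each transcript event at a numbered locus. The sources used here do not give the program that computed them. A stranded SMART-seq kit is named in the labels. Of GRCm39 and mm10, the builds that the notes list, GRCm39 is the one whose coordinates the files use. Events at 0 are not listed and were taken as 0. FPKM carry no read numbers, so no counting error can be given.

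Repeated lines of an event were dropped, so a skipped form listed with several versions of an exon counts for the version listed before the others. At 626 of the 6279 exons several events of a kind were summed. The share included is the FPKM of the included form in percent of the sum. Tests used limma 3.58.1 in R 4.3.3 on log2((included + 1)/(skipped + 1)), with 4 group means, an intensity trend and Benjamini-Hochberg adjustment over 6279 exons, two-sided, called under 0.05. The level of each locus, as log2(FPKM + 1), went through the same test in the 9743 loci that reached 1 FPKM in 3 or more libraries. The level of a locus was the largest of its summed transcript starts, summed transcript ends and largest event. The tests were checked on simulated data. Genes were matched to GENCODE M21 by exon and intron lengths, with no conversion of coordinates, and the matched name is used where it differs from the file's.

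Members, 6 gene lists and tests were chosen with earlier results of these data known. Up to 10 exons each way per pairwise comparison and 5 each way for the interaction were named by size of the difference among exons that met the limits, 1 per gene, with exons of listed genes. Some results under that rule and some markers are not reported here. The limits of 10 points and no overlap came from the rule for naming exons, and their use for counts and the fit on shares were chosen after seeing the data. Same-numbered libraries did not deviate together (r −0.0511 to 0.0777 over exons), so no pairing was used. That does not tell whether same-numbered libraries came from the same animal. Alternatives changed the FPKM added, the minimum, the scale of the share and the scaling of levels, or left out each library.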

Additional observations from a re-analysis of the deposited data

Results flagged for a closer look

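For 6 exons the change of the included share with activation differed between KIKO and KI cells, by the interaction term of limma. The values below are the KIKO change minus the KI change in points. They were 33.0 for the 43-bp exon of Cenpt, 16.8 for the 49-bp exon of Birc2, −11.6 for the 143-bp exon of Aifm1, −12.0 for the 384-bp exon of Zc3h12d, −17.8 for the 139-bp exon of Hnrnph1 and −37.4 for the 69-bp exon of Ktn1. Birc2, a ubiquitin ligase that restrains cell death, had its exon at 94.2, 100 and 100% in KIKO activated and 100% in all KI activated libraries, and at 79.0, 80.7 and 84.0% in KIKO naive and 100% in all KI naive libraries (adjusted p 0.0481, and 0.129 in the fit on shares). Zc3h12d, an RNase of lymphocytes, had its exon at 91.1, 90.6 and 87.8% in KIKO activated, against 92.4, 91.6 and 91.3% in KI activated libraries, and at 100% in all KIKO naive, against 92.4, 86.8 and 90.7% in KI naive libraries (adjusted p 0.0481). That call was lost without any 1 of the 12 libraries, and that of Birc2 without any 1 of 10.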

How the results depend on the processing

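Counts below are in the order KI activation, KIKO activation, KIKO against KI in activated cells, KIKO against KI in naive cells. By adjusted p alone they were 1473, 552, 394 and 47, and 160, 74, 46 and 25 with a minimum of 10 points. They were 118, 31, 32 and 23 with 0.1 FPKM added in place of 1, 2744, 1768, 1406 and 184 with 5 FPKM added, 79, 36, 21 and 23 in the fit on shares and 50, 33, 19 and 13 with the percent on its own scale. A minimum of 10 FPKM gave 803, 303, 216 and 50, and no minimum 2422, 1037, 671 and 65. With 10 points and no overlap they were 149, 68, 43 and 25. These became 50, 13, 12 and 12 with 0.1 FPKM, 167, 109, 79 and 36 with 5 FPKM, 58, 18, 9 and 12 in the fit on shares, and 36, 17, 8 and 6 on the percent scale. A minimum of 10 FPKM gave 99, 48, 22 and 23, and no minimum 228, 102, 75 and 33. A skipped form counted for every version of its exon gave 176, 83, 50 and 27. The interaction called 14 exons, 266 with 5 FPKM, 20 with 0.1 FPKM, 9 on the percent scale and 16 in the fit on shares. At 10 points it called 6, and 23, 5, 2 and 4 under those settings. The levels of SR and hnRNP genes gave 39, 23, 34 and 7 called loci, and 39, 22, 36 and 2 with median-ratio scaling, and 38, 22, 32 and 4 with no filter.

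Leaving out 1 library gave 1046 to 1596, 259 to 700, 187 to 469 and 36 to 80 calls by adjusted p alone, and 4 to 28 for the interaction. With 10 points and no overlap it gave 110 to 163, 35 to 88, 23 to 55 and 19 to 45, and 2 to 13 for the interaction. Gene levels gave 37 to 40, 17 to 24, 28 to 35 and 2 to 7 called loci. By adjusted p alone the naive count was 80 without KIKO naive 2 and 79 without KIKO naive 3, the activated genotype count 187 without KI activated 3, 210 without KIKO activated 1 and 227 without KI activated 2, and the KIKO activation count 259 and 260 without KIKO activated 1 or 2.

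Labels give the groups the same replicate numbers, but same-numbered libraries did not deviate together in their exon ratios. KIKO activated 2 and KIKO naive 2 do share the myeloid and NK markers, and whether they share a source is not stated. With the replicate number as a block, the counts by adjusted p alone were 1291, 412, 232 and 32, with 4 for the interaction, and with 10 points and no overlap 136, 50, 26 and 18, with 2. Some named genotype differences were lost with the block. In naive cells its adjusted p was 0.0624 for the Clk4 exon and 0.0504 for that of Aifm1. In activated cells it was 0.0547 for Hnrnph3 and 0.0562 for Fnbp4. Gene levels gave 40, 24, 35 and 6 called loci.

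Of the 114 exon changes followed, 36 had no value with a minimum of 10 FPKM. In the fit on shares 50 of the 114 held and 64 were weaker. With 0.1 FPKM added 42 held and 72 were weaker, and on the percent scale 44 held and 70 were weaker. With the replicate block 83 held and 31 were weaker. None of the 114 reversed under the settings that gave it a value, and the cause of the lost calls was not tested. Depth is unknown from FPKM alone, and no limit from counting is given.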
